A study of Mus musculus with 8 samples.

Results

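Expression of 10 genes was examined in lung neutrophils of WT mice that had received S. pneumoniae or PBS through the trachea 24 h earlier. The genes comprised 5 of the hypoxia-inducible factor (HIF) system, namely Hif1a, Epas1, Egln1, Egln3 and Vegfa, and 5 of the glucocorticoid response, namely Nr3c1, Tsc22d3, Fkbp5, Sgk1 and Zbtb16. They were chosen by name as textbook members of these systems, with earlier results of these data known. Each symbol had 1 row among the 24625 rows of the deposited mRNA table, of which 19911 carried a symbol. The SP group (given S. pneumoniae) held 4 samples and the PBS group held 4, each measured on 1 Affymetrix mRNA array. All mice were WT (C57BL/6J in the study's methods). Their age was 6 to 12 weeks in the labels and 6 to 8 weeks in the methods. The inoculum, 2.3 µl per g of body weight, was placed in the left lung. The cells were taken from digested lung with magnetic beads against Ly6G, and their purity was evaluated in the pneumonia samples only. There the study found high purity on stained cytospins, and most of the few other cells resembled alveolar macrophages. It also reports high Ly6G mRNA in all samples. The labels give no animal for a sample, while the study describes each array sample as coming from a mouse, and the p-values measure the spread between these samples. Values are log2 expression, in which 1 unit is a 2-fold change. Levels of different genes come from different probes and were not ranked against each other.

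HIF is a transcription factor made of an oxygen-regulated alpha subunit and a stable beta subunit. When oxygen is ample, prolyl hydroxylases of the Egln family mark the alpha subunit for ubiquitination by the Vhl complex, and when oxygen is scarce the alpha subunit persists and activates genes of glycolysis, angiogenesis and its own feedback. The glucocorticoid receptor waits in the cytoplasm in a complex with heat shock proteins and immunophilins until it binds hormone, then enters the nucleus and activates or represses genes. In neutrophils, HIF and glucocorticoids are both known for prolonging survival. The arrays measured mRNA, whereas HIF alpha subunits are controlled mainly through protein stability and the receptor through its ligand.

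Pairs of arrays correlated at 0.979 to 0.997 within the PBS group, 0.970 to 0.995 within the SP group and 0.857 to 0.947 between groups. The median of all rows was 6.06 to 6.20 on the PBS arrays and 5.78 to 5.91 on the SP arrays, and the group means of these medians differed by -0.28. The median difference of single rows, SP minus PBS, was 0.10. With the arrays centred on their medians it became 0.38, and 57.7% of all rows were then higher and 16.4% lower in SP, so that values from centred arrays below are to be read against these. The mean of 9 neutrophil marker genes ranged from 12.63 to 13.03 in PBS and from 12.49 to 13.00 in SP, with 1 of the 9 higher and 3 lower in SP, while Ly6g itself had no matched row. Transcripts of other lung cells were present in both groups. The mean of 11 endothelial markers ranged from 10.15 to 11.11 in PBS and from 8.51 to 9.62 in SP, with 10 of the 11 lower in SP. Of the epithelial markers, 4 of 6 for alveolar type 1 cells, 8 of 10 for alveolar type 2 cells, 7 of 7 for club cells and 8 of 8 for ciliated cells were lower in SP. All 5 B cell markers were also lower. The other lists moved less uniformly, with 2 of 8 fibroblast markers lower, 1 alveolar macrophage marker higher and 3 lower of 6, 2 of 7 monocyte and macrophage markers higher and 1 of 8 T and NK cell markers higher. None of 5 smooth muscle markers passed the limma test, and 1 was lower at an unadjusted p under 0.05. Among the PBS arrays, PBS replicate 2 had the lowest neutrophil mean (12.63) and the highest endothelial mean (11.11). Among the SP arrays, SP replicate 3 had the highest neutrophil mean (13.00) and the lowest endothelial mean (8.51).

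**Figure D1:**
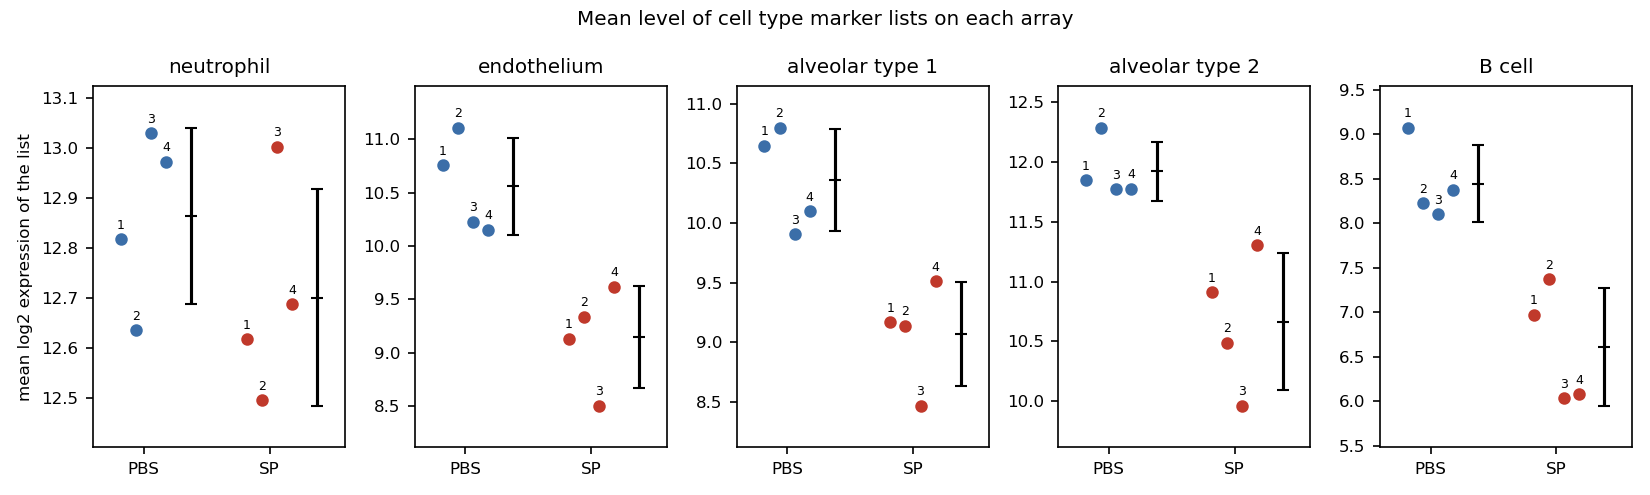
Mean log2 expression of the genes of 5 cell type marker lists on each array (vertical axes differ between panels), with the replicate number beside each point and the group mean and SD (n = 4) as a bar. The neutrophil means overlap, at 12.63 to 13.03 in PBS and 12.49 to 13.00 in SP, whereas the endothelial means do not, at 10.15 to 11.11 in PBS and 8.51 to 9.62 in SP.

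Of the 10 genes, 6 were higher and 2 lower in SP at an adjusted p of 0.05 or less by limma, and 2 did not pass the test. Over all rows 44.1% passed, 21.5% higher and 22.6% lower. Hif1a, Egln3, Nr3c1, Tsc22d3, Fkbp5 and Sgk1 rose, Epas1 and Egln1 fell, and Vegfa and Zbtb16 did not pass. Changes of at least 2-fold were found in 3 of the 10, namely Fkbp5 and Egln3, which rose 3.99-fold and 3.89-fold, and Epas1, which fell 3.55-fold. Over all rows 17.6% reached this size, 6.37% higher and 11.3% lower. None of the 10 genes lay below the median row level in either group, whereas all rows include the dim ones. With rows below the median of row means left out, 7424 rows still passed and 3933 reached 2-fold, against 10860 and 4341 of all 24625 rows. Most of the rows kept passed, so the all-row shares are a low background for the 10 genes. Neither the 8 of 10 that passed nor the 3 of 10 at 2-fold is read as an excess. The values of the PBS and SP arrays did not overlap for 8 of the 10 genes, against 49% of all rows. The median difference of the 10 genes was 0.58. Without PBS replicate 1, or without SP replicate 1, 5 of the 10 passed, and 7 passed without both PBS replicate 2 and SP replicate 3. Over all rows 8200, 8612 and 10277 passed in these 3 settings, against 10860 with all arrays.

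**Figure D2:**
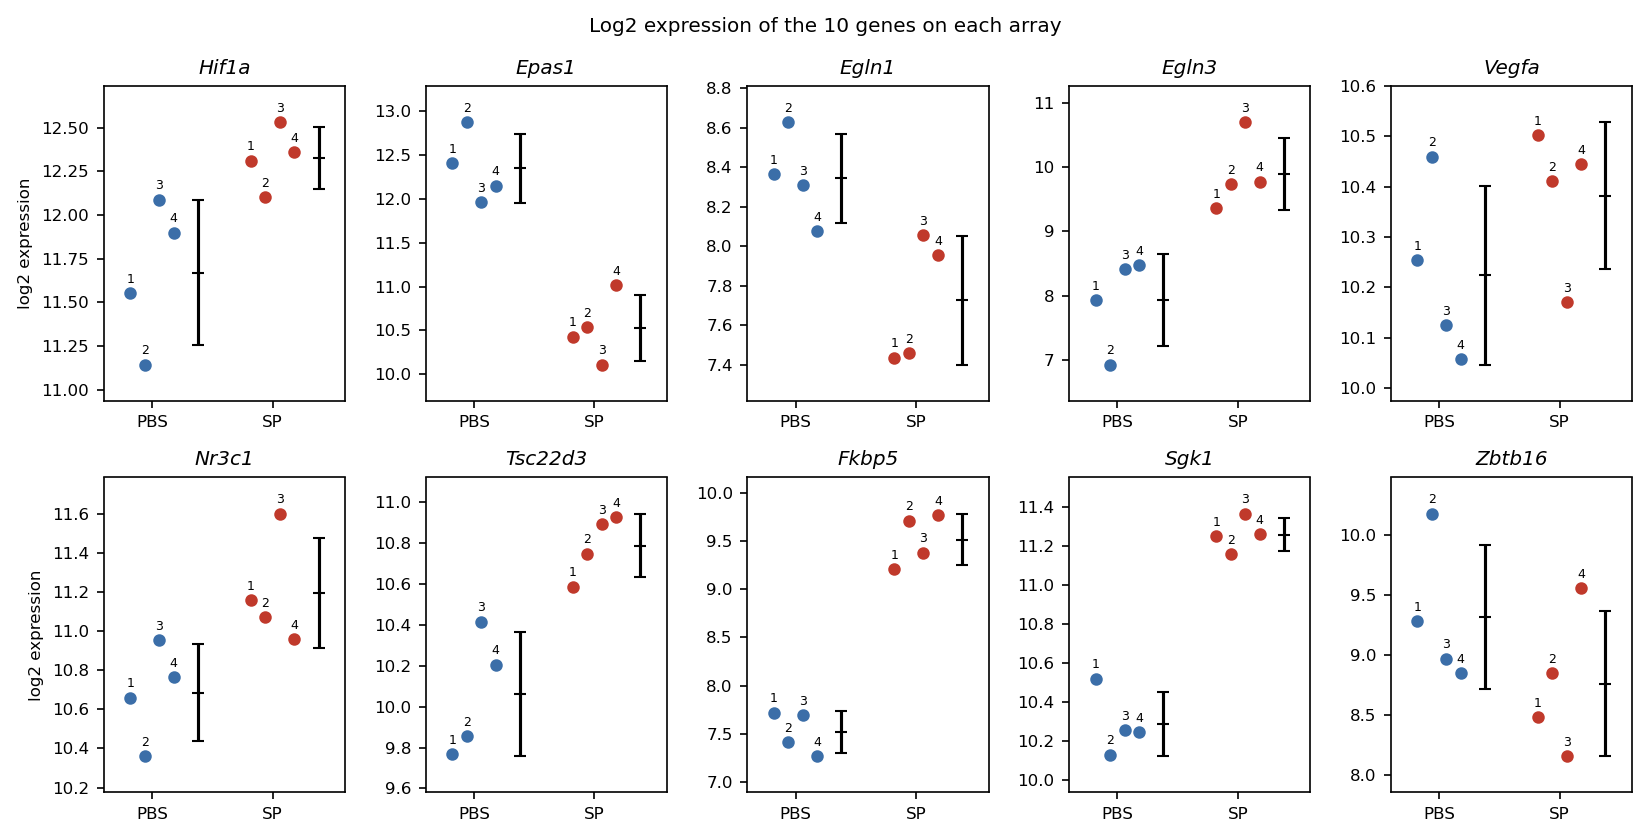
Log2 expression of the 10 genes on each array (vertical axes differ between panels), with the replicate number beside each point and the group mean and SD (n = 4) as a bar. The PBS and SP points are fully separated for 8 genes and overlap for Vegfa and Zbtb16.

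Hif1a and Epas1, which encode the alpha subunits of the main HIF complexes, moved in opposite directions. Hif1a (NM_010431) measured 11.55, 11.14, 12.09 and 11.90 on the PBS arrays and 12.31, 12.10, 12.53 and 12.36 on the SP arrays. The groups did not overlap, but the highest PBS value lay just under the lowest SP value. The means were 11.67 ± 0.42 and 12.33 ± 0.18 (SD, n = 4), a difference of 0.66 (95% interval 0.20 to 1.12, adjusted p = 0.0295). The rise was 1.58-fold, and its adjusted p was 0.0763 without PBS replicate 1, 0.0630 without SP replicate 1, 0.0635 without SP replicate 3 and 0.0554 without SP replicate 4.

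Epas1 (NM_010137) measured 12.41, 12.87, 11.96 and 12.15 on the PBS arrays and 10.43, 10.54, 10.11 and 11.02 on the SP arrays. Every SP value was below every PBS value by a wide gap. The means were 12.35 ± 0.40 and 10.52 ± 0.38 (SD, n = 4), a difference of -1.83 (95% interval -2.37 to -1.28, adjusted p = 0.000505), and the call held under all 17 alternatives. Epas1 is a gene known for its high expression in lung endothelium, and the endothelial markers given above were lower on the same arrays. Within each group the array with the highest endothelial mean (PBS replicate 2 at 11.11, SP replicate 4 at 9.62) had the highest Epas1 value. In SP the array with the lowest endothelial mean (SP replicate 3) had the lowest. In PBS the lowest arrays differed, being PBS replicate 3 for Epas1 (11.96) and PBS replicate 4 for the endothelial mean (10.15). The alveolar type 1 and alveolar type 2 marker means were highest and lowest on the same arrays as Epas1 in both groups. The part of other cells in the Epas1 difference was not tested, and in a bulk sample fewer cells of a type and less RNA per cell cannot be told apart.

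Compared within each array, where a shift of the whole array cancels, Hif1a minus Epas1 was -0.86, -1.73, 0.12 and -0.25 in PBS and 1.89, 1.56, 2.42 and 1.34 in SP. All 4 SP arrays were above all 4 PBS arrays. The change of the 2 genes differed by 2.48 (95% interval 1.56 to 3.40), with p = 0.0286 by a two-sided exact permutation test, the smallest p that 4 against 4 arrays allow, and 0.0381 after adjustment over the 4 contrasts made. Hif1a alone separated the groups upward and Epas1 downward, so this p was fixed by those values and adds no evidence to them.

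The prolyl hydroxylases also moved apart. Egln1, which encodes the main oxygen sensor of the family (NM_053207), measured 8.36, 8.63, 8.31 and 8.08 on the PBS arrays and 7.44, 7.46, 8.06 and 7.96 on the SP arrays. SP replicates 3 and 4 came close to the lowest PBS array, so that the separation rested on a narrow gap. The mean fell by 0.62 on the log2 scale from 8.34 ± 0.23 to 7.73 ± 0.33 (SD, n = 4), with a 95% interval of -1.03 to -0.21 and an adjusted p of 0.0233. The adjusted p rose to 0.0571 without PBS replicate 1, 0.0579 without PBS replicate 2, 0.0628 without SP replicate 1 and 0.0580 without SP replicate 2. It was 0.105 with the arrays centred on their medians, where the difference was -0.34.

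Egln3, a hydroxylase whose gene is itself induced by HIF (NM_028133), measured 7.93, 6.92, 8.41 and 8.47 on the PBS arrays and 9.37, 9.73, 10.70 and 9.78 on the SP arrays. All SP values exceeded all PBS values, with PBS replicate 2 lowest and SP replicate 3 highest. The means were 7.93 ± 0.72 and 9.89 ± 0.57 (SD, n = 4), a difference of 1.96 (95% interval 1.06 to 2.86, adjusted p = 0.00451). Without both of those arrays the difference was 1.35 (adjusted p = 0.00126). Egln3 minus Egln1 within the array was -0.43, -1.70, 0.10 and 0.40 in PBS and 1.93, 2.27, 2.64 and 1.82 in SP. The groups were again separate, and the changes of the 2 hydroxylases differed by 2.58 (95% interval 1.60 to 3.56, exact permutation p = 0.0286, adjusted over the 4 contrasts 0.0381). This p too was fixed in advance, since each gene alone separated the groups, in opposite directions.

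Vegfa, the classical angiogenic target of HIF (NM_001025250), did not pass the test. It measured 10.25, 10.46, 10.12 and 10.06 on the PBS arrays and 10.50, 10.41, 10.17 and 10.44 on the SP arrays. The groups overlapped, and the highest PBS value lay above 3 of the 4 SP values. The difference was 0.16 (95% interval -0.10 to 0.42, adjusted p = 0.265), so that the interval did not include a 2-fold change. This call depended on the scaling: with arrays centred on their medians the difference was 0.44 and passed the test (adjusted p = 0.00581), near the all-row median of 0.38 under that scaling, and after another quantile normalization it was 0.0018 (adjusted p = 0.994). It also passed without PBS replicate 2 and SP replicate 3 together (0.31, adjusted p = 0.0196).

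The hypoxia response element, the sequence known to bind HIF, has the core ACGTG or GCGTG. It was searched on both strands of RefSeq promoter windows of GRCm38.p6, from 250 bases before to 50 bases after each transcript start. Windows were found for 7 of the 10 genes, 15 windows in all, and not for Epas1, Nr3c1 and Zbtb16. At least 1 core lay in 10 of the 15 windows and in all 7 genes. The motif is common, being held by 43.8% of all 32851 windows, and the match is a description of letters and not of binding. The stretches below are shown because they belong to the regulators that rose most (Egln3 and Fkbp5), to the subunit Hif1a and to Vegfa. Of the 2 Vegfa windows 1 held a core. The Vegfa and Hif1a starts used below lie inside the annotated gene spans (chr17:46016993-46032377 and chr12:73901324-73947554), not at their outer ends. Capitals mark the core on either strand, and CACGTG holds it on both.
Egln3, chr12:54204086-54204115, minus strand, core 229 bases before the start: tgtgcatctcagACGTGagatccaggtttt
Fkbp5, chr17:28486301-28486330, minus strand, core 169 bases before the start: gcaagggccagaCACGTGggcagcggtgaa
Hif1a, chr12:73907720-73907749, plus strand, core 135 bases before the start: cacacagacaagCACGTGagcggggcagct
Vegfa, chr17:46025361-46025390, minus strand, first of 2 cores 218 bases before the start: ccctggagtGCGTGccCACGTcagagagca

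The gene for the glucocorticoid receptor was higher in SP, as were 3 of the 4 targets among the 10 genes, Tsc22d3, Fkbp5 and Sgk1. Of 27 further targets described later 3 were higher and 9 lower, a share higher of 11.1% against 21.5% of all rows. These counts depended on the test and on dim rows, as given there. Nr3c1 (NM_008173), the receptor, measured 10.66, 10.36, 10.95 and 10.76 on the PBS arrays and 11.16, 11.07, 11.60 and 10.96 on the SP arrays. SP replicate 4 lay just above PBS replicate 3, so that the groups were separate by a narrow margin. The means were 10.68 ± 0.25 and 11.20 ± 0.28 (SD, n = 4), a difference of 0.51 (95% interval 0.12 to 0.90, adjusted p = 0.0393). Leaving out 1 array lifted the adjusted p above 0.05 for 6 of the 8 arrays, namely PBS replicates 1 (0.0877), 2 (0.0894) and 4 (0.0671) and SP replicates 1 (0.0750), 2 (0.0554) and 3 (0.0622).

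Tsc22d3, which encodes the anti-inflammatory leucine zipper protein GILZ (NM_001077364), measured 9.77, 9.86, 10.42 and 10.20 on the PBS arrays and 10.59, 10.75, 10.89 and 10.93 on the SP arrays. All SP values were above all PBS values. The means were 10.06 ± 0.30 and 10.79 ± 0.16 (SD, n = 4), a difference of 0.73 (95% interval 0.37 to 1.09, adjusted p = 0.00625). Its change was not separable from that of the receptor gene: Tsc22d3 minus Nr3c1 averaged -0.62 ± 0.18 over the PBS arrays and -0.41 ± 0.30 over the SP arrays (SD, n = 4), a difference of 0.22 (95% interval -0.15 to 0.58, exact permutation p = 0.286). The interval does not show that the 2 genes changed equally.

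Fkbp5, an immunophilin that lowers the receptor's affinity for hormone and is induced by the receptor (NM_010220), had the largest difference of the 10 genes in the deposited values, just ahead of Egln3. It measured 7.72, 7.41, 7.69 and 7.27 on the PBS arrays and 9.21, 9.71, 9.38 and 9.77 on the SP arrays. The lowest SP array was more than 1 log2 unit above the highest PBS array. The means were 7.52 ± 0.22 and 9.52 ± 0.27 (SD, n = 4), a difference of 2.00 (95% interval 1.63 to 2.36, adjusted p = 4.17e-05). Neither PBS replicate 2 nor SP replicate 3 was the extreme array of its group. Over the 17 alternatives the difference ranged from 1.91 to 2.28.

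Fkbp4, the immunophilin that competes with Fkbp5 for the receptor complex, moved the other way. It measured 8.83, 9.12, 8.74 and 8.84 on the PBS arrays and 6.91, 6.73, 5.66 and 7.27 on the SP arrays, a fall of 4.72-fold (adjusted p = 0.000644). PBS replicate 2 and SP replicate 4 had the highest Fkbp4 value of their group and SP replicate 3 the lowest, as with the endothelial mean. The lowest PBS array was PBS replicate 3 for Fkbp4 (8.74) and PBS replicate 4 for the endothelial mean (10.15). The alveolar type 1, alveolar type 2 and club cell marker means were highest and lowest on the same arrays as Fkbp4 in both groups. The part of other cells in this fall was not tested. Fkbp5 minus Fkbp4 within the array was -1.12, -1.71, -1.05 and -1.57 in PBS and 2.30, 2.98, 3.72 and 2.50 in SP. The sign of this quantity differed between the groups on all 8 arrays, although the zero has no meaning across probes. The changes differed by 4.24 (95% interval 3.53 to 4.94, exact permutation p = 0.0286, adjusted over the 4 contrasts 0.0381). Fkbp5 alone separated the groups upward and Fkbp4 downward, so this p was again fixed by the single-gene values. A difference within the array does not cancel cell makeup.

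**Figure D3:**
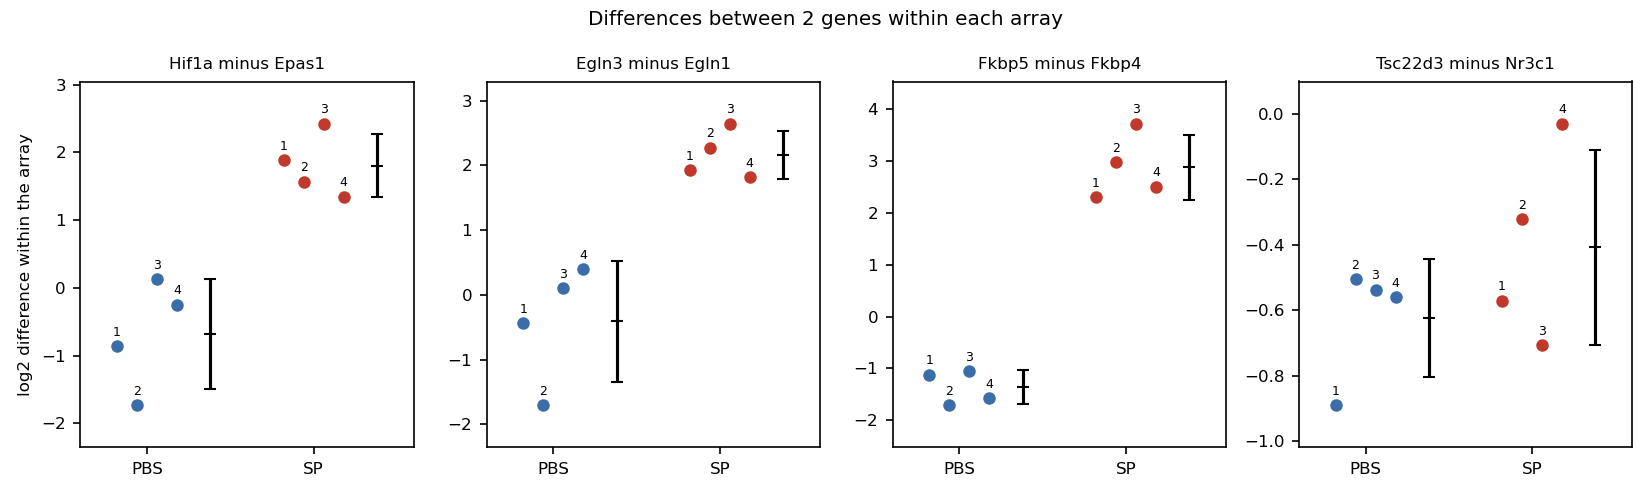
Log2 difference between 2 genes on the same array for 4 gene pairs (vertical axes differ), with the replicate number beside each point and the group mean and SD (n = 4) as a bar. The groups are separate for Hif1a minus Epas1, Egln3 minus Egln1 and Fkbp5 minus Fkbp4, and overlap for Tsc22d3 minus Nr3c1.

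Sgk1, a kinase regulated by serum and glucocorticoids that acts on ion transport and cell survival (NM_001161847), varied little among arrays. It measured 10.52, 10.13, 10.25 and 10.24 on the PBS arrays and 11.25, 11.15, 11.36 and 11.26 on the SP arrays. The groups were separated by more than the range within either of them. The means were 10.29 ± 0.17 and 11.26 ± 0.085 (SD, n = 4), a rise of 0.97 (95% interval 0.74 to 1.20, adjusted p = 0.000136), or 1.96-fold.

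Zbtb16, a zinc finger repressor strongly induced by glucocorticoids in many tissues (NM_001033324), did not pass the test. It measured 9.28, 10.18, 8.97 and 8.85 on the PBS arrays and 8.48, 8.85, 8.15 and 9.56 on the SP arrays. The groups overlapped, with SP replicate 4 above 3 of the 4 PBS arrays. The difference was -0.56 (95% interval -1.40 to 0.28, adjusted p = 0.226). It was -0.82 without SP replicate 4 and -0.07 without both PBS replicate 2 and SP replicate 3.

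**Figure D4:**
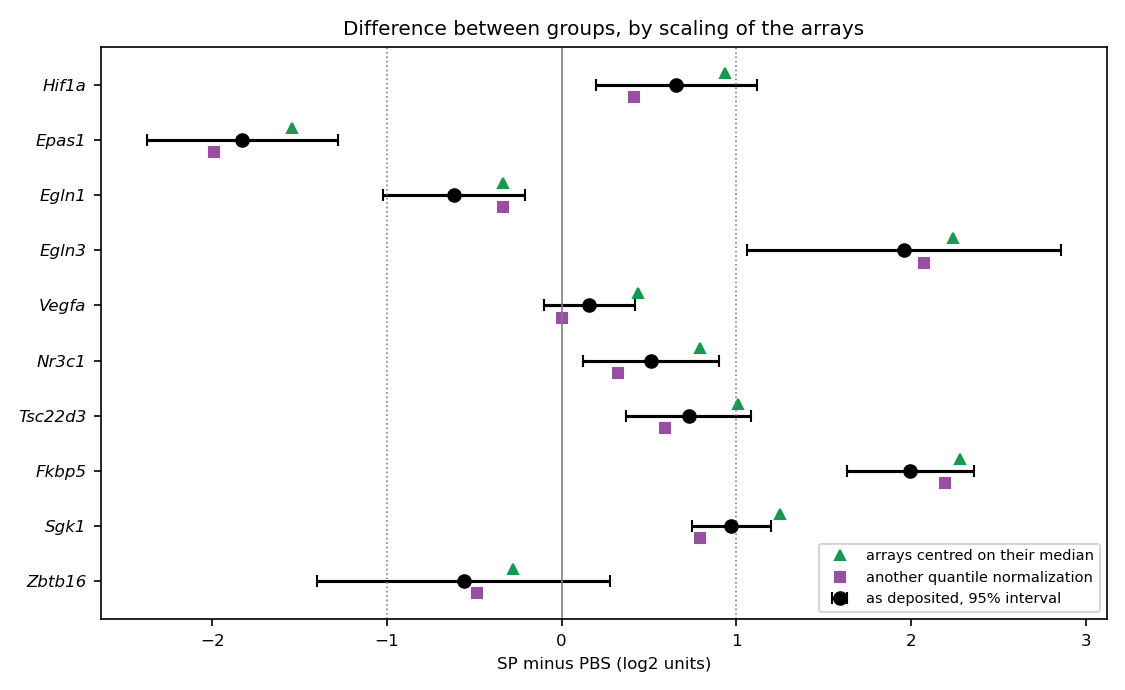
Difference between the group means, SP minus PBS in log2 units, for the 10 genes. Circles show the deposited values with the 95% interval of limma, triangles the arrays centred on their medians and squares another quantile normalization. No gene changes sign between scalings, Vegfa lies between 0.0018 and 0.44, and the dotted lines mark a 2-fold change.

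The glucocorticoid response element was searched in the same promoter windows by its core ACANNNTGT, which 6.85% of all windows held. It lay in 2 of the 15 windows, both of Sgk1, and in no window of Tsc22d3 or Fkbp5. The full palindromic element, which extends the core symmetrically on both sides, was searched only after the Sgk1 sequence had been seen, and 3 of the 32851 windows held it, 1 of them in Sgk1. Both Sgk1 stretches are shown with the match in capitals, since they are the only ones among the 7 genes. They come from 2 of the 6 Sgk1 windows, and both starts lie inside the annotated gene span (chr10:21882184-21999903).
Sgk1, chr10:21993694-21993723, plus strand, palindrome 189 bases before the start: tgcggaaAGAACAGAATGTTCTcggagatt
Sgk1, chr10:21978535-21978564, plus strand, core 127 bases before the start: tctgtttgaaACAGTTTGTctacatagctg

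Several of the 10 genes shared an order among the arrays of a group. PBS replicate 2 had the lowest PBS value of Hif1a, Egln3, Nr3c1 and Sgk1 and the highest of Epas1, Egln1, Vegfa and Zbtb16. SP replicate 3 had the highest SP value of Hif1a, Egln1, Egln3, Nr3c1 and Sgk1 and the lowest of Epas1, Vegfa and Zbtb16. These are the arrays with the lowest neutrophil mean of PBS and the highest of SP. The part of cell makeup in these orders was not tested. Over the 8 arrays the symbols with the pattern most like Hif1a were Ap3b1 (Pearson's r = 0.989), Chst11 (0.988) and Clic1 (0.987), and 803 symbols exceeded 0.9. Those most like Nr3c1 were Eloc (0.995), Pou3f3 (0.995) and Olfr270 (0.994), with 1598 above 0.9. These correlations include the difference between the groups and are given as descriptions.

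Other components of the HIF switch were mainly higher or not called. Of 14 matched regulators 7 were higher and 0 lower by limma (median difference 0.27). The counts of this and the following lists are to be read against 21.5% higher and 22.6% lower of all rows. At an unadjusted p under 0.05, 8 were higher and 1 lower, the latter being Siah2. Limma with a trended, robust prior called 5 higher and 0 lower. Without dim rows 5 were higher and 0 lower, Arnt (adjusted p = 0.0749) and Rbx1 (0.0777) no longer passing. Cited2, a HIF-induced competitor for the coactivator p300, rose from 10.26 ± 0.16 to 11.75 ± 0.27 (SD, n = 4), a change of 2.82-fold (adjusted p = 0.000107). Vhl, which targets the alpha subunit for destruction, rose from 7.60 ± 0.18 to 8.85 ± 0.33 (2.38-fold, adjusted p = 0.000566). Without any 1 array the list had 4 to 7 genes higher, and 4 without PBS replicate 4, SP replicate 1 or SP replicate 2.

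Glycolytic genes known as HIF targets split in both directions. Of 18 matched genes 6 were higher, 5 lower and 7 not called, with a median difference of -0.19 that became 0.09 with the arrays centred on their medians (0.38 for all rows). Pfkfb3, which makes the activator of phosphofructokinase, rose from 9.25 ± 0.53 to 12.10 ± 0.11 (SD, n = 4), or 7.19-fold (adjusted p = 5.21e-05). Hk2, an inducible hexokinase, rose 4.91-fold (adjusted p = 6.21e-05). Aldoc, an aldolase, fell by 1.76 on the log2 scale (adjusted p = 0.00054), and Slc2a3, a glucose transporter, fell by 1.53 (adjusted p = 0.00386). Among genes picked out after their values were seen, the transporter Slc2a1 (0.05, adjusted p = 0.834), Ldha (-0.50, adjusted p = 0.0836) and Pdk1 (-0.29, adjusted p = 0.139) did not pass. The number of genes lower ran from 3 to 9 when 1 array was left out: it was 3 without PBS replicate 1, 3 or 4 or SP replicate 1, 2 or 4, and 9 without SP replicate 3.

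Of 28 matched HIF targets outside glycolysis, 9 were higher, 7 lower and 12 not called, and all 9 that were higher exceeded 2-fold. At 2-fold 32.1% were higher and 7.14% lower, against 6.37% and 11.3% of all rows, which include more dim ones. Ddit4 and Angptl4 are also in the list of glucocorticoid targets and Ndrg1 in that of Sgk1, so the list counts are not independent. The median difference was 0.03. Nos2, the inducible nitric oxide synthase, rose from 8.36 ± 0.74 to 12.16 ± 0.41 (SD, n = 4), or 13.9-fold (adjusted p = 0.000105). Bhlhe40, a transcriptional repressor, rose 8.54-fold (adjusted p = 4.12e-06). P4ha2, a collagen prolyl hydroxylase subunit, fell by 1.40 on the log2 scale (adjusted p = 0.00108) and Vldlr, a lipoprotein receptor, fell by 1.16 (adjusted p = 0.0118). Nos2 and Bhlhe40 also respond to inflammatory stimuli, and the list does not separate these inputs. Without SP replicate 1, 4 genes were lower.

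Among 9 relatives and receptors of Vegfa, 1 was higher and 6 lower (median difference -0.87). Pgf, a placental ligand of the family, rose from 5.38 ± 0.20 to 6.74 ± 0.74 (SD, n = 4; adjusted p = 0.0110), with every SP value above every PBS value, and its row is dim (below the median of row means). Kdr, the main signalling receptor, fell from 10.45 ± 0.55 to 8.39 ± 0.82 (SD, n = 4), or 4.15-fold (adjusted p = 0.0051), and the coreceptor Nrp1 fell 3.51-fold (adjusted p = 0.00881). Both are known endothelial genes, and the endothelial marker mean fell in the same samples from 10.56 ± 0.45 to 9.15 ± 0.47 (SD, n = 4), a part that was not tested. Without PBS replicate 1, 3 genes were lower, and without SP replicate 3, 2 were higher.

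**Figure D5:**
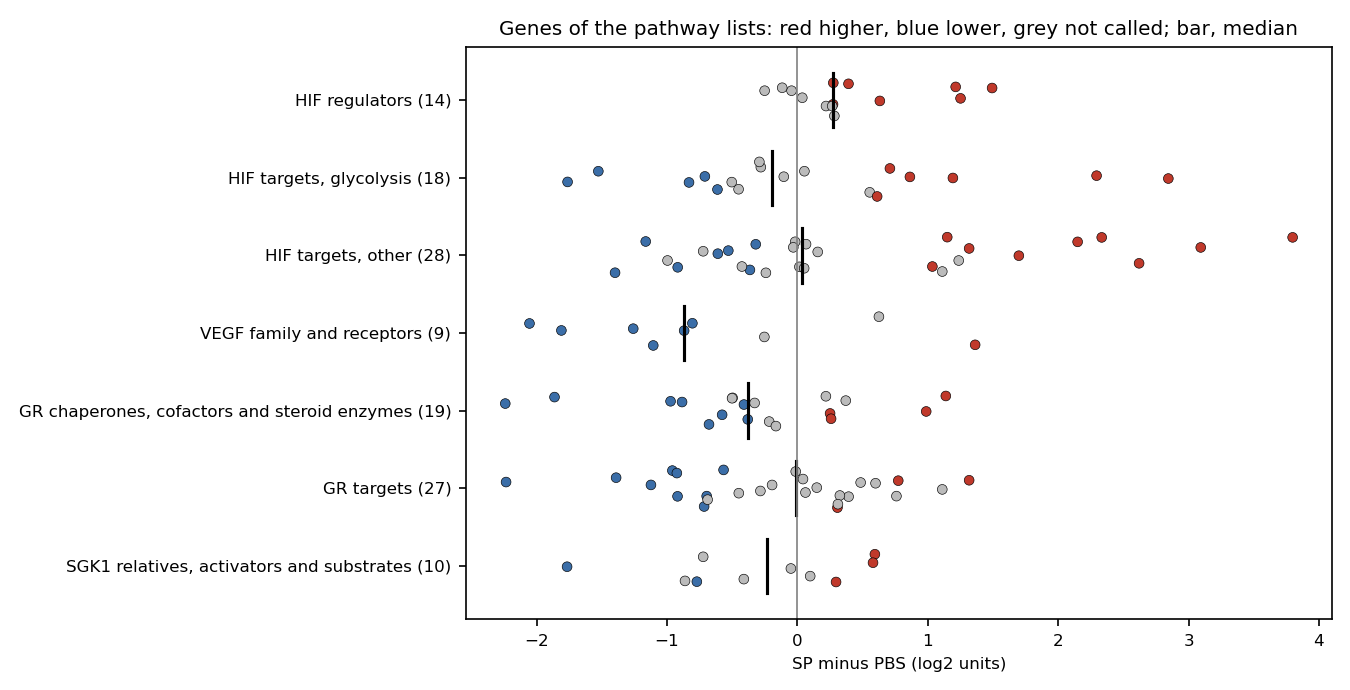
Difference SP minus PBS in log2 units of each matched gene in 7 pathway lists, with the number of genes in brackets, red for genes higher and blue for genes lower at an adjusted p of 0.05 or less, grey for genes not called and a black bar at the list's median. The medians run from -0.87 in the VEGF list to 0.27 in the HIF regulators, and 6 of the 7 lists hold genes called in both directions.

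Of 19 matched receptor chaperones, cofactors and steroid enzymes, 4 were higher and 8 lower (median difference -0.38). Besides Fkbp4, the largest fall was that of Nr3c2, the mineralocorticoid receptor, from 7.09 ± 0.38 to 5.22 ± 0.19 (SD, n = 4), or 3.64-fold (adjusted p = 0.000133). Hsd11b2, which inactivates glucocorticoids, rose from 5.23 ± 0.28 to 6.37 ± 0.80 (SD, n = 4; adjusted p = 0.0348), but its row, like that of Pgf, is dim. The values used hold no detection call, so no fold is given for Pgf or Hsd11b2. Ncoa3, a nuclear receptor coactivator, rose by 0.99 on the log2 scale (adjusted p = 0.00168). The heat shock genes Hsp90aa1 (-0.97, adjusted p = 0.000762) and Hsp90ab1 (-0.88, adjusted p = 0.00161), picked out after their values were seen, also fell. Leaving out 1 array left 1 to 3 genes higher: 1 without PBS replicate 1 or 4 or SP replicate 1, and 2 without PBS replicate 2 or 3 or SP replicate 2.

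Few of the other glucocorticoid targets were called higher with Tsc22d3, Fkbp5 and Sgk1. Of 27 further targets 3 were higher, 9 lower and 15 not called, with a median difference of -0.01. At an unadjusted p under 0.05 by limma, 6 were higher and 9 lower. The calls include dim rows, namely Pck1 higher and Klf15, Tat and Cdkn1c lower. Without dim rows, 4 targets were higher and 6 lower. Mt2, a metallothionein, rose from 12.12 ± 0.22 to 12.90 ± 0.21 (SD, n = 4; adjusted p = 0.00291), and Angptl4, a lipase inhibitor that is also a HIF target, rose 2.49-fold with overlapping groups (adjusted p = 0.0341). Lpin1, a phosphatidate phosphatase, fell from 7.99 ± 0.20 to 5.76 ± 0.28 (SD, n = 4), or 4.70-fold (adjusted p = 2.35e-05). Pdk4, a kinase that restrains pyruvate oxidation, fell by 1.39 on the log2 scale (adjusted p = 0.0225). Its value on SP replicate 4 was 8.46, against 6.60 to 6.71 on the other SP arrays. The widely used targets Per1 (0.06, adjusted p = 0.811), Dusp1 (0.15, adjusted p = 0.19) and Klf9 (-0.28, adjusted p = 0.404), picked out after their values were seen, did not pass. With arrays centred on their medians 11 targets were higher and 6 lower (40.7% and 22.2%, against 57.7% and 16.4% of all rows), and their median difference of 0.27 was below the 0.38 of all rows. The count lower was 4 without PBS replicate 1, SP replicate 1 or SP replicate 2, and the count higher was 1 without PBS replicate 1, 2 or 4.

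Of 10 relatives, activators and substrates of Sgk1, 3 were higher and 2 lower (median difference -0.23, or 0.05 with centred arrays, against 0.38 for all rows). These shares, 30% and 20%, are near the 21.5% and 22.6% of all rows. Sgk2, among those higher, has a dim row (mean 4.27 in PBS and 4.56 in SP). Without dim rows, 2 were higher and 3 lower. The activating kinase Pdpk1 rose by 0.59 (adjusted p = 0.0286) and Rictor, a core part of the kinase complex above Sgk1, by 0.58 on the log2 scale (adjusted p = 0.00588). Nedd4l, a ubiquitin ligase that Sgk1 phosphorylates, fell from 10.43 ± 0.19 to 8.66 ± 0.35 (SD, n = 4), or 3.40-fold (adjusted p = 0.000133), and Mlst8, another part of the complex, fell by 0.77 (adjusted p = 0.00373). Without PBS replicate 1, 2 or 3 or SP replicate 1, 1 gene was higher.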

How the data were processed

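Neutrophil RNA from lungs in 4 PBS and 4 SP samples was measured on Affymetrix mRNA arrays. The authors deposited log2 expression values made by robust multi-array average (RMA) after correction for background, GC content and probe sequence, with quantile normalization and a median-polish summary. The submitters' processing notes name Affymetrix Expression Console, RMA and Partek, without versions. No column of another sample was in the table. Rows were named by RefSeq identifier through the RefSeq gene table (GRCm38.p6). Groups came from the labels.

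SP was compared with PBS on all 24625 rows with limma 3.58.1 (R 4.3.3; lmFit and eBayes, two-sided), without filter or covariate, and p-values were adjusted by Benjamini-Hochberg over all rows. The threshold was an adjusted p of 0.05, with 2-fold as a second one. Differences between 2 genes within an array were tested by exact permutation, with intervals from limma. The procedure was tested on simulated data. The 10 genes, the lists and the tests were chosen with earlier results of these data known. All 10 genes were named, with the 2 largest rises and falls called in each list, and genes named beyond this were marked in the text. Figures were drawn with matplotlib 3.10.9. Array number limits the precision. Alternatives were one-way ANOVA as in the study's methods, a trended and robust prior, a replicate block, array weights, median centring, another quantile normalization, removal of dim rows, 1 row per symbol, and leaving out arrays.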

Additional observations from a re-analysis of the deposited data

Results flagged for a closer look

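Within groups of 4 arrays, 7 values lay further from the other 3 than Dixon's 95% limit allows, of 116 groups of values tested, where chance gives about 1 in 20. Tsc22d3 minus Nr3c1 was -0.89 on PBS replicate 1, against -0.56 to -0.51 on the other PBS arrays. The alveolar type 2 marker mean was 12.29 on PBS replicate 2, against 11.77 to 11.85. On PBS replicate 1 the smooth muscle marker mean was 8.30, against 7.44 to 7.56, and the alveolar macrophage marker mean was 9.44, against 8.75 to 8.83. Aldoc was 7.12 on PBS replicate 2, against 7.61 to 7.68. On SP replicate 4, Pdk4 was 8.46, against 6.60 to 6.71, and Mlst8 was 7.31, against 6.72 to 6.77.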

How the results depend on the processing

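Over 17 alternatives to the test of the 10 genes, none of 170 differences reversed, 144 kept their direction and side of the threshold, 23 no longer passed and 3 newly passed. Epas1, Egln3, Tsc22d3, Fkbp5 and Sgk1 passed under all 17 and Zbtb16 under none. The losses were those of Hif1a, Egln1 and Nr3c1, and the gains those of Vegfa, which include array weights (0.30, adjusted p = 0.0161). Without any 1 array 5 to 8 of the 10 passed, and 5 passed after another quantile normalization, where Hif1a (0.42, adjusted p = 0.0749), Egln1 (-0.34, adjusted p = 0.239) and Nr3c1 (0.32, adjusted p = 0.105) did not. Over all rows 8200 to 10907 passed without any 1 array and 10245 after that normalization. In one-way ANOVA, Hif1a (adjusted p = 0.0603) and Nr3c1 (0.0706) did not pass. The alternative without PBS replicate 2 and SP replicate 3 was chosen after the data were seen. Every contrast within the array kept its side of the threshold in 11 alternatives. For Hif1a minus Epas1, Egln3 minus Egln1 and Fkbp5 minus Fkbp4, leaving out 1 array could not change this. Their groups were fully separated, which fixes the permutation p at its smallest value.

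Over all rows, replicate numbers did not pair the samples consistently: deviations of same-numbered arrays correlated at 0.016, 0.030, 0.35 and -0.27, and 2 of 8 arrays correlated best with their own number. These correlations do not settle pairing for single genes. With the replicate block 7 of the 10 genes passed in limma, and Egln1 did not (adjusted p = 0.0606). The adjusted p was smaller with the block for Hif1a (0.00972, against 0.0295 without it) and Nr3c1 (0.0186, against 0.0393). With the block 1 HIF regulator and 8 glycolytic genes were lower, and 2 receptor chaperones or cofactors and 6 glucocorticoid targets were higher.

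Centring arrays on their medians adds 0.28 to every difference: 18255 rows passed (14219 higher and 4036 lower), 2375 were higher at 2-fold, 5 of the 10 genes reached 2-fold, 11 HIF regulators (78.6%) and 11 glucocorticoid targets (40.7%) were higher against 57.7% of all rows, and 2 glycolytic and 3 other HIF targets lower. After the quantile normalization 1 HIF regulator and 9 glycolytic genes were lower, and 2 chaperones or cofactors and 1 Sgk1 relative higher. In one-way ANOVA 3 glycolytic genes and 5 glucocorticoid targets were lower. With a trended, robust prior 2 chaperones or cofactors and 5 glucocorticoid targets were higher. With array weights 10 glycolytic genes and 5 Sgk1 relatives were lower and 2 VEGF genes higher. Without dim rows 0 VEGF genes and 1 chaperone or cofactor were higher, Pgf and Hsd11b2 being among the rows left out and Bag1 (adjusted p = 0.0949) and Crebbp (0.0828) no longer passing. Without PBS replicate 2 and SP replicate 3, 8 glycolytic genes were lower, and 2 VEGF genes and 2 chaperones or cofactors higher.

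Leaving out 1 array gave these ranges. HIF regulators had 4 to 7 higher and 0 to 1 lower, glycolytic genes 3 to 9 lower and other HIF targets 4 to 8 lower. VEGF genes had 1 to 2 higher and 3 to 6 lower, chaperones and cofactors 1 to 3 higher, glucocorticoid targets 1 to 4 higher and 4 to 10 lower, and Sgk1 relatives 1 to 3 higher. The cause of these shifts was not tested.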
